A study of Saccharomyces cerevisiae with 3 samples.

Results

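Transcript ratios of 10 genes for protein folding in the endoplasmic reticulum (ER) are described in budding yeast, Saccharomyces cerevisiae, under arsenite. The set was chosen by function and by gene symbol, and holds the oxidase gene ERO1, the disulfide isomerase genes PDI1, EUG1, MPD1 and MPD2, the chaperone genes KAR2, LHS1, SCJ1 and JEM1, and the transcription factor gene HAC1. All 10 were measured, among 5539 named genes. The treated group was wild-type yeast exposed to 0.2 mM arsenite, As(III), for 1 h, and its control was wild-type yeast without arsenite. The labels used here give no strain background, mating type, ploidy or medium for either group, and no mutation or other agent. Both RNAs were hybridised to the same array, on 3 two-colour arrays in all. The Cy5 label was on the treated RNA for replicates 1 and 2 and on the untreated RNA for replicate 3, where the dyes were exchanged.

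Secretory proteins fold in the ER lumen, where Kar2, the yeast BiP, binds unfolded chains and where disulfide bonds form. Pdi1 and its relatives pass disulfides to client proteins, and Ero1, a flavoprotein, reoxidises Pdi1 with molecular oxygen as the final electron acceptor. When unfolded protein accumulates, the sensor Ire1 cuts HAC1 mRNA, the tRNA ligase Trl1 joins its exons, and the Hac1 protein then activates folding and degradation genes, a programme called the unfolded protein response. Arsenite binds pairs of neighbouring thiols, so the comparison asks whether transcripts of this programme differ in level between arsenite-treated and untreated cells.

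Each value is a log2 ratio, arsenite-treated over untreated, averaged over the 2 spots of each gene and centred on the median gene of each array, so 0 is the ratio of the median gene. A gene passed the test, and is said to have risen or fallen, where limma's adjusted p over all genes was under 0.05. The mean ratio over arrays is given ± SD (n = 3 arrays). The direction takes the deposited values as Cy5 over Cy3 and assumes that the sign of replicate 3 had not been turned by the authors. As deposited, replicate 3 correlated negatively over spots with replicates 1 and 2 (r = -0.782 and -0.613). The opposite convention would turn every sign. The base of the logarithm was read as 2; were it natural, every ratio would be larger by 1 common factor. The medians removed were -0.10, 0.52 and -0.14 on replicates 1, 2 and 3. After turning, r across genes was 0.823, 0.842 and 0.679 for replicates 1 and 2, 1 and 3, and 2 and 3; genes are not independent replicates. Transcripts of the arsenic detoxification genes ARR2 and ARR3 rose 12.1-fold and 3.54-fold. Of 7 a-cell marker genes 4 fell and 0 rose (6 fell and 1 rose at an unadjusted p), of 4 alpha-cell markers 1 rose and 1 fell, and of 9 meiosis markers 3 rose and 0 fell (4 and 0 unadjusted). The list medians were -0.72, -0.04 and 0.33, and the part of such cell states in the results below was not tested. In a whole culture, fewer cells of a type and less RNA per cell cannot be told apart.

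The transcript of ERO1 rose about 3-fold under arsenite, that of JEM1 fell, and the other 8 did not pass the test. KAR2, LHS1, EUG1 and MPD2, which include the main Hsp70 of the ER and an exchange factor for it, had mean ratios between -0.25 and 0.04. PDI1 and SCJ1 had ratios of 0.50 and 0.45 and MPD1 one of -0.50, each short of the threshold. Thus 1 of the 10 genes rose, against 14.5% of all genes, and 1 fell, against 18.1% of all genes, so that 2 passed in either direction, against 32.7%. Of the 10, 6 had the same sign on all 3 arrays, against 58.9% of all genes. These counts moved with single arrays. Without replicate 2, 3 of the 10 rose (ERO1, PDI1 and SCJ1) and 1 fell, beside 939 and 1041 of all 5539 genes. The same 3 rose with a dye effect in the fit, which weights replicate 3 as much as replicates 1 and 2 together. Without replicate 3, 1 rose and 2 fell (JEM1 and MPD1), beside 845 and 1071 of all genes. Without replicate 1, 1 rose and 1 fell, beside 412 and 602 of all genes, against 805 and 1004 with 3 arrays. The median of the 10 ratios was -0.03, beside 0.01 over all genes, and their medians on the single arrays were -0.03, -0.13 and 0.04. For 9 of the 10 genes the upper end of the 95% interval of the mean lay below a 2-fold rise (1 on the log2 scale), ERO1 being the exception, a count added after the values were seen. This held for 7 without moderation across genes, where each gene has only its own spread, and for 7 with the arrays as deposited. With natural logarithms it would hold for 7. In the main fit, whose intervals draw on the spread of all genes, the interval of 8 of the 10 lay within 2-fold in both directions.

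**Figure D1:**
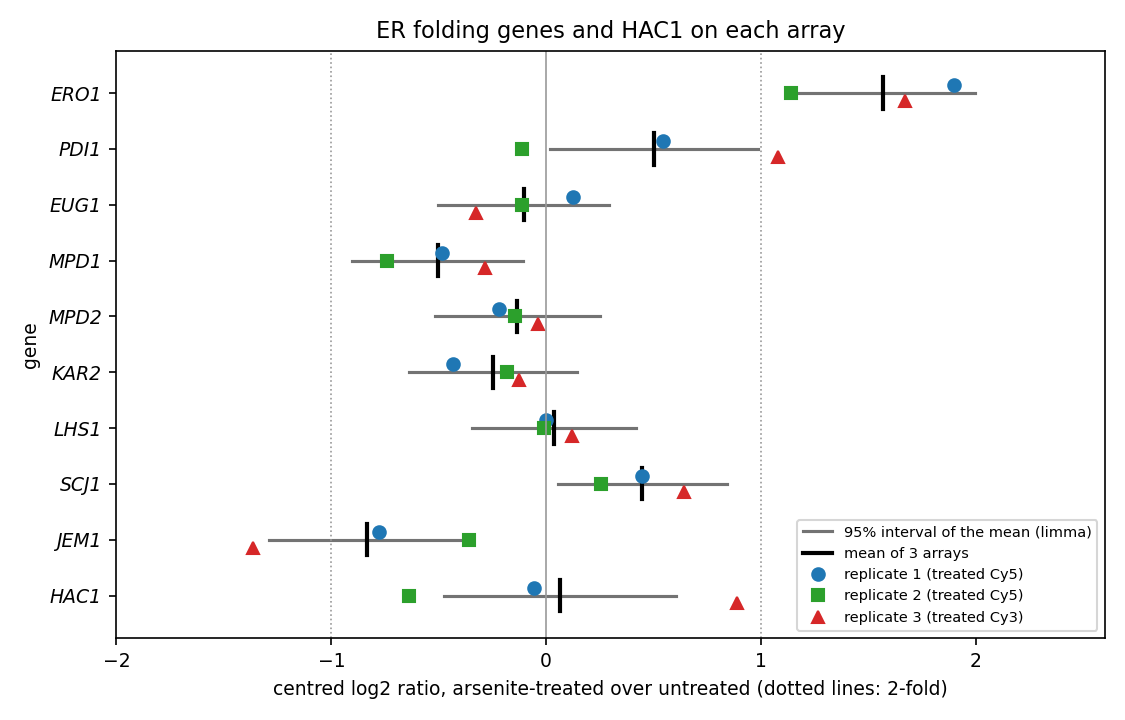
Centred log2 ratio (horizontal axis) of arsenite-treated over untreated cells for each of the 10 genes (rows) on the 3 arrays (symbols), with the mean (black bar) and its 95% interval from limma (grey line). ERO1 lies beyond the dotted line of a 2-fold rise on every array, between 1.14 and 1.90, whereas HAC1 spans -0.64 to 0.89.

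ERO1 (YML130C), the ER thiol oxidase, had log2 ratios of 1.90, 1.14 and 1.67 on replicates 1, 2 and 3. All 3 arrays lay above a 2-fold rise, with replicate 2 lowest. The mean was 1.57 ± 0.39 (95% interval 1.14 to 2.00, 2.97-fold, limma adjusted p = 4.92e-05), and ERO1 ranked 107 from the top of the table. Its spots differed by 0.16, 0.31 and 0.07 on the 3 arrays, less than the spread of 0.76 between arrays. Read in both dye orientations, ERO1 had 1.52 with the treated RNA in Cy5 and 1.67 with it in Cy3. Its ratio exceeded that of each of the other 9 genes on every array, by a mean of 1.07 for PDI1, the nearest, and of 2.40 for JEM1. The smallest p that an exact sign test allows with 3 arrays is 0.25. Judged on its own spread over the arrays, without moderation across genes, ERO1 did not pass (adjusted p = 0.124; 9.08e-14 to 0.124 over the alternatives), and then 5 genes of the whole table rose and 4 fell.

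**Figure D2:**
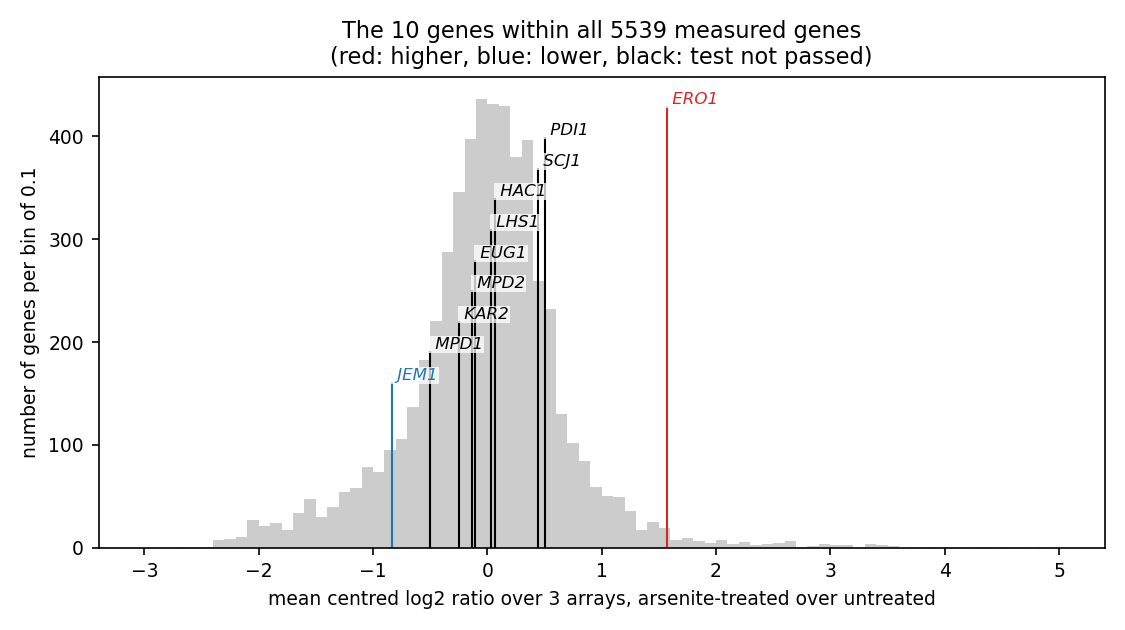
Number of genes per bin of 0.1 (vertical axis) by mean centred log2 ratio over the 3 arrays (horizontal axis), for all 5539 genes in grey, with the 10 genes as labelled lines whose height carries no value. ERO1 stands at rank 107 from the top, with 98.1% of genes below it, and PDI1 and SCJ1 have 83.8% and 81.5% below them.

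Of the 4 disulfide isomerase genes, 0 rose and 0 fell by limma, with 1 higher and 1 lower at an unadjusted p under 0.05, and their median was -0.12. PDI1 (YCL043C), the essential isomerase, had 0.54, -0.11 and 1.08 on replicates 1, 2 and 3. Only replicate 2 was below 0, and the exchanged array was the highest. Its mean of 0.50 ± 0.60 (95% interval 0.02 to 0.98) did not pass (adjusted p = 0.104). It did pass without replicate 2 (0.81, limma adjusted p = 0.00353) and with a dye effect in the fit (0.65, limma adjusted p = 0.00558). The dye fit weights replicate 3, the highest for PDI1, as much as replicates 1 and 2 together. Over all alternatives the adjusted p of PDI1 ran to 0.513. The difference between replicates was not one between spots, since the PDI1 spots lay within 0.19 of each other on every array.

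EUG1 (YDR518W), a Pdi1 relative whose active sites each lack a cysteine of the usual pair, had 0.13, -0.11 and -0.33, values on both sides of 0. Its mean was -0.10 ± 0.23 (95% interval -0.50 to 0.29, adjusted p = 0.700). The first EUG1 spot was higher than the second on all 3 arrays, by 0.48, 0.51 and 0.32, so the first alone gave a mean of 0.12. MPD1 (YOR288C), an isomerase that can replace Pdi1 when overproduced, was below 0 on every array, with -0.49, -0.74 and -0.29. Its mean of -0.50 ± 0.23 lay just beyond the threshold (adjusted p = 0.0512). MPD1 passed as lower with centring on all spots (adjusted p = 0.0443), with centring within runs of spots (0.0331) and without replicate 3 (0.0289); the range over all alternatives ran to 0.342. MPD2 (YOL088C), another member of the family, had -0.22, -0.14 and -0.04, with a mean of -0.13 ± 0.09 (95% interval -0.52 to 0.25, adjusted p = 0.598). The isomerase family thus spread over about 1 log2 unit, PDI1 and MPD1 being the ends, with neither end past the test.

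KAR2 (YJL034W), the Hsp70 of the ER lumen and the usual reporter of the unfolded protein response, had -0.44, -0.18 and -0.13 on the 3 arrays. All 3 values were below 0. The mean was -0.25 ± 0.16 (95% interval -0.64 to 0.14, adjusted p = 0.319), and KAR2 did not pass under any of 12 alternative settings (adjusted p 0.230 to 0.826). LHS1 (YKL073W), a nucleotide exchange factor of Kar2, had -0.0006, -0.01 and 0.12, with a mean of 0.04 ± 0.07 (95% interval -0.35 to 0.42, adjusted p = 0.900). LHS1 varied least between arrays among the 10 genes, and 4.73% of all genes had a smaller SD.

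The lumenal J-domain partners of Kar2 lay on different sides of 0. SCJ1 (YMR214W), which serves folding in the lumen, was above 0 on every array, with 0.45, 0.25 and 0.64. Its mean of 0.45 ± 0.19 (95% interval 0.05 to 0.84, 1.36-fold) did not pass (adjusted p = 0.0769). It passed without replicate 2 (adjusted p = 0.0343), with a dye effect in the fit (0.0412) and with centring within runs of spots (0.0461), and the range over alternatives ran to 0.390. JEM1 (YJL073W), an ER membrane J-protein known for nuclear fusion in mating and for degradation of misfolded ER proteins, had -0.78, -0.36 and -1.36. All 3 arrays were below 0, the exchanged one by the most. JEM1 fell to a mean of -0.83 ± 0.50 (95% interval -1.29 to -0.38, 1.78-fold lower in treated cells, limma adjusted p = 0.00819). The call held with each single array left out (adjusted p 0.000324 to 0.0444) and was lost without moderation (0.253). SCJ1 exceeded JEM1 on each array.

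HAC1 (YFL031W) gave no repeatable ratio. Its values were -0.06, -0.64 and 0.89 on replicates 1, 2 and 3, so the exchanged array was far above the others. The mean was 0.07 ± 0.77 (95% interval -0.47 to 0.60, adjusted p = 0.867), with -0.35 when replicate 3 was left out and 0.42 when replicate 2 was. The paired HAC1 spots differed by at most 0.12, and by 0.005 on replicate 3, so the disagreement lay between arrays. Of all genes, 97.6% had a smaller SD over the arrays and 98.5% a smaller difference between dye orientations. The value is the total signal of the spots. The files do not describe the probes, and splicing of HAC1 was not measured here.

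Among genes around HAC1, IRE1, the ER sensor kinase and nuclease, had 0.13, 0.67 and 0.25, all above 0 but not past the test (mean 0.35 ± 0.28, adjusted p = 0.174). TRL1, the tRNA ligase that joins the HAC1 exons, had -0.32, 0.40 and -0.36 (mean -0.09 ± 0.43, adjusted p = 0.754). Of 6 genes on the signalling list 0 rose and 1 fell, with the same counts at an unadjusted p. The one that fell was GCN4, the activator of amino acid synthesis genes that also acts at targets of Hac1 (-1.15 ± 0.11, adjusted p = 0.000267). INO1, the inositol phosphate synthase gene whose expression needs Ire1 and Hac1 in inositol-free medium, had -0.83, -0.65 and -0.65. INO1 fell (-0.71 ± 0.10, adjusted p = 0.00792), although not without replicate 1 (0.160) or as deposited (0.119).

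**Figure D3:**
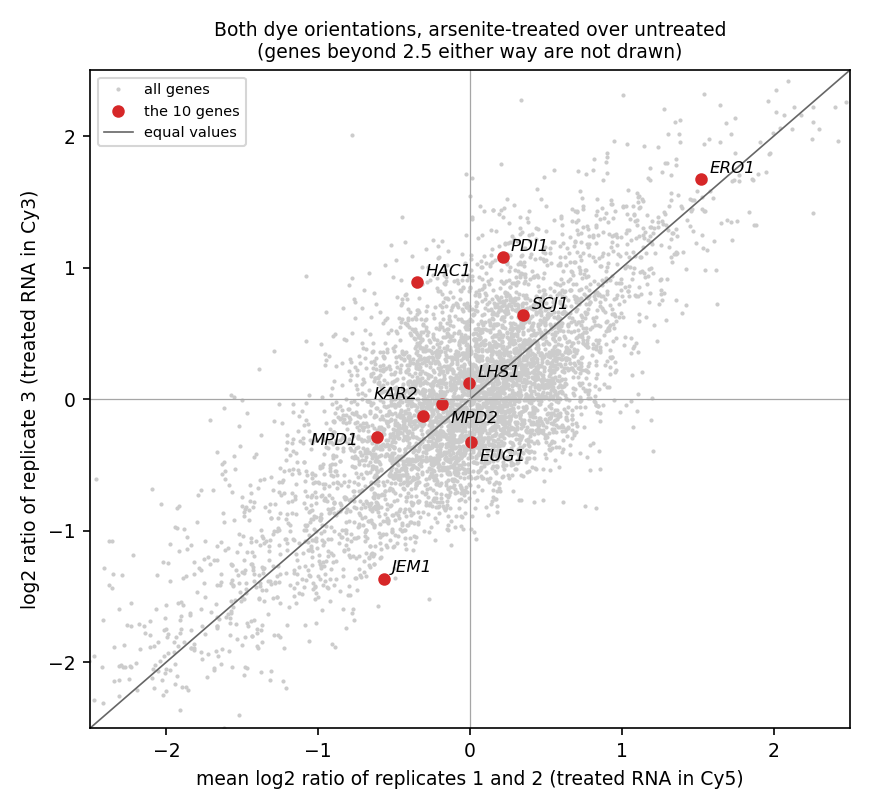
Log2 ratio of replicate 3, with treated RNA in Cy3 (vertical axis), against the mean of replicates 1 and 2, with treated RNA in Cy5 (horizontal axis), for all genes in grey and the 10 genes in red. ERO1 lies near the line of equal values, whereas HAC1 (-0.35 in Cy5, 0.89 in Cy3), PDI1 (0.21 and 1.08) and JEM1 (-0.57 and -1.36) lie off it.

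The arrays of opposite dye orientation differed most for 3 of the 10 genes. The mean in Cy5 minus the value in Cy3 was -1.24 for HAC1, -0.87 for PDI1 and 0.80 for JEM1, and 98.5%, 92.2% and 89.9% of all genes had smaller sizes. For the other 7 genes the difference lay between -0.33 and 0.33. With 1 array in the exchanged orientation, dye and replicate cannot be told apart. Ordered by mean ratio, the 10 genes ran ERO1, PDI1, SCJ1, HAC1, LHS1, EUG1, MPD2, KAR2, MPD1 and JEM1. The step from ERO1 to PDI1 was 1.07 ± 0.42 within arrays. Next to it, the step from MPD2 to KAR2 (0.11 ± 0.09) was the only other one larger than its own SD. The remaining 7 steps were smaller than their SDs over the arrays, so most neighbours in this order did not differ beyond their spread.

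Among other genes for ER folding and redox, 1 of 16 rose and 0 fell (the same at an unadjusted p), with a list median of 0.03. Without replicate 3, 2 rose and 0 fell, and 1 rose and 1 fell without replicate 2, with a dye effect in the fit and with centring within runs of spots. The one that rose was FMO1, a flavin monooxygenase that supplies oxidising equivalents for disulfide formation in the ER. FMO1 had 1.31, 1.24 and 1.33 on the 3 arrays, a narrow range (mean 1.29 ± 0.05, 2.45-fold, limma adjusted p = 9.54e-05). ERV2, an ER thiol oxidase that can act in place of Ero1, had 0.03, -0.02 and 0.17 and did not pass (mean 0.06 ± 0.10, 95% interval -0.32 to 0.44, chosen for mention after its values were seen).

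Of 16 genes of ER-associated degradation, which returns misfolded proteins to the cytosol, 5 rose and 0 fell (7 and 0 at an unadjusted p). The share that rose was 31.2%, against 14.5% of all genes, and the list median was 0.34. UFD1 (1.46 ± 0.15) and CDC48 (1.03 ± 0.16), of the cytosolic segregase that also serves the proteasome elsewhere in the cell, rose most. USA1, a scaffold of the Hrd1 ligase, followed (0.90 ± 0.21, adjusted p = 0.00196). MNS1 (0.64 ± 0.33) and NPL4 (0.61 ± 0.11), the latter of the segregase of UFD1 and CDC48, were the others that rose. That segregase is not particular to the ER, so the share that rose is not one of ER genes alone. UBC7 (0.50 ± 0.19) fell just short of the test (limma adjusted p = 0.0524). The ligase gene HRD1 (-0.03 ± 0.69) and MNL1 (-0.26 ± 0.25) did not pass either. The count that rose was 3 without replicate 1, 4 without replicate 2 and 7 without replicate 3. In the ER translocation list 6 of 21 genes fell and 1 rose, with a median of -0.36. These are 28.6% and 4.76%, against 18.1% and 14.5% of all genes. SSS1, a subunit of the Sec61 channel, fell most (-1.62 ± 0.29), followed by SEC63, the J-domain partner of Kar2 at the channel (-1.02 ± 0.24), and SRP72 of the signal recognition particle (-0.90 ± 0.33). SEC66, of the Sec63 complex, rose (0.80 ± 0.21). Leaving out replicate 1 gave 3 translocation genes that fell and 0 that rose, beside 602 and 412 of all genes. Leaving out replicate 2 gave 8 lower and 2 higher, beside 1041 and 939 of all genes. Leaving out replicate 3 gave 6 lower and 2 higher, beside 1071 and 845. With the arrays as deposited 3 fell and 1 rose, beside 603 and 606.

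Among 26 measured genes of N-glycan assembly, transfer and trimming, 3 rose and 4 fell (median -0.13), and 2 more had no named spot. These are 11.5% and 15.4%, against 14.5% and 18.1% of all genes. ALG13 (1.26 ± 0.25), ALG7 (0.91 ± 0.42) and ALG14 (0.62 ± 0.17) rose; all encode enzymes that build the first steps of the lipid-linked glycan. OST6, a subunit of the oligosaccharyltransferase, had the lowest ratio of those that fell (-0.71 ± 0.29). DPM1 (-0.70 ± 0.71) and ALG5 (-0.69 ± 0.12), which make dolichol-linked mannose and glucose, fell too. Without replicate 1, 2 genes of this list rose and 1 fell. Of 6 O-mannosyltransferase genes 0 rose and 2 fell, PMT4 (-0.68 ± 0.41) and PMT1 (-0.54 ± 0.07), with 1 higher and 2 lower at an unadjusted p and a median of -0.15. Of 17 genes of COPII export from the ER, 0 rose and 4 fell (1 and 4 unadjusted, median -0.09), led by the cargo receptor genes ERV25 (-0.74 ± 0.19), ERV14 (-0.67 ± 0.24) and EMP24 (-0.53 ± 0.21). The shares that fell were 33.3% of the mannosyltransferase genes and 23.5% of the COPII genes, against 18.1% of all genes. Without replicate 1, 0 genes fell in either of these lists. With the arrays as deposited, 0 genes fell in these lists and in the N-glycan list, beside 603 of all genes. Without replicate 2, 1 mannosyltransferase gene rose and 1 fell, and 2 COPII genes fell, and without replicate 3, 1 mannosyltransferase gene fell, and 1 COPII gene rose and 3 fell.

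Over these 7 secretory lists together, without the 10 genes themselves, 10 of 108 measured genes rose and 17 fell. These are 9.26% and 15.7%, against 14.5% and 18.1% of all genes, and the median was -0.08, against 0.01. Both shares are close to or below the background. The counts were 6 and 5 without replicate 1, 16 and 15 without replicate 3, and 7 and 4 with the arrays as deposited. Of 10 genes of inositol and phospholipid synthesis and its control, 0 rose and 3 fell (0 and 4 unadjusted), with a median of -0.31. ITR1, the inositol transporter (-1.39 ± 0.35), INO1 and CHO1, phosphatidylserine synthase (-0.67 ± 0.22), were the ones that fell. Without replicate 1, 1 of them fell, and likewise 1 with the arrays as deposited.

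**Figure D4:**
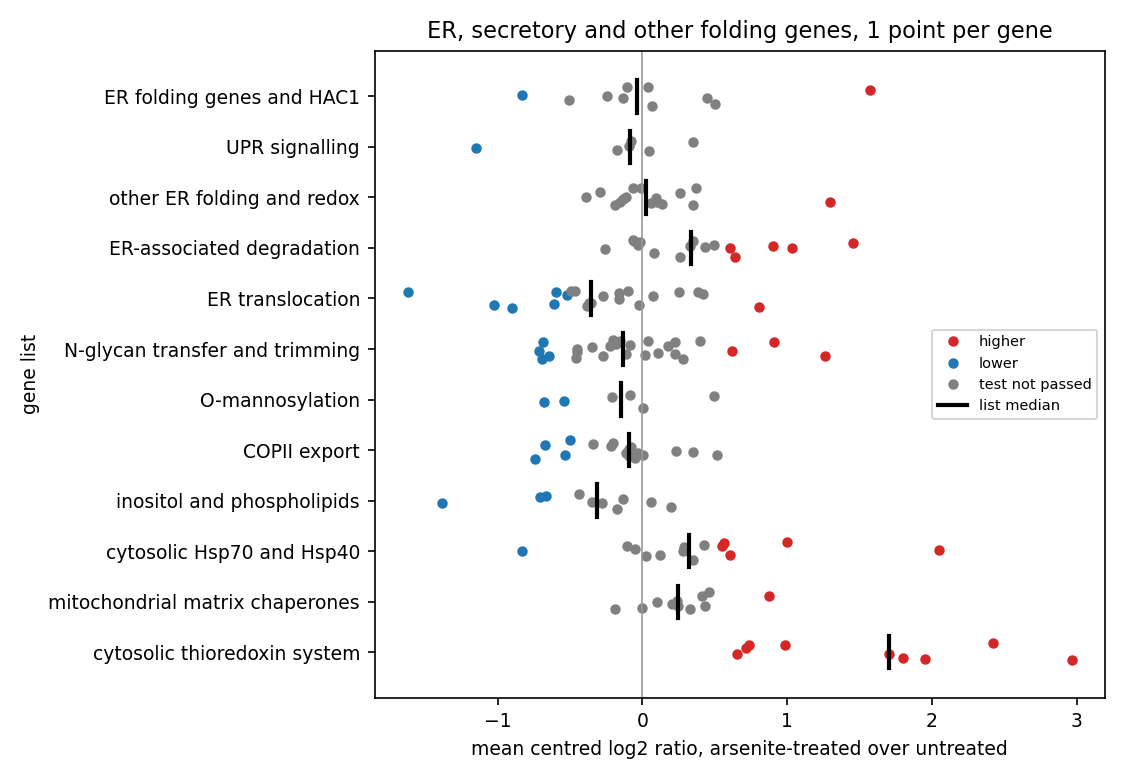
Mean centred log2 ratio (horizontal axis) of each measured gene in the ER, secretory and other folding lists (rows, 1 point per gene, spread vertically for visibility), with list medians as black bars. The ER folding row has its median at -0.03. The cytosolic thioredoxin system row holds 9 genes for thiol redox proteins, a list chosen with their rise already known. All 9 lie to the right of 0, with a median of 1.70.

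Chaperones of other compartments had somewhat higher list medians than the ER set (-0.03). Of 14 cytosolic Hsp70, Hsp40 and exchange factor genes, 5 rose and 1 fell, with a median of 0.32. SSA4, the stress-inducible cytosolic Hsp70, had 1.65, 1.74 and 2.76 and rose 4.14-fold (2.05 ± 0.62, adjusted p = 1.82e-05), and SSE1, an Hsp110 exchange factor like Lhs1, rose 2.00-fold (1.00 ± 0.50). The share of this list that rose was 35.7%, against 14.5% of all genes. The count that rose was 2 without replicate 1, 6 without replicate 2 and 3 without replicate 3, beside 412, 939 and 845 of all genes. Without replicate 2, 0 of the list fell. Of 11 mitochondrial matrix chaperone genes 1 rose and 0 fell (4 and 0 unadjusted), with a median of 0.24; it was MDJ1, an Hsp40 (0.87 ± 0.38), and 2 rose without replicate 2. Among 9 genes for cytosolic thiol redox proteins, a list chosen with their rise already known, 9 rose and 0 fell by limma and also unadjusted. TRX2, a thioredoxin, led them (2.96 ± 0.57, 7.80-fold). The difference between these lists and the ER set was not tested.

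The nearest protein-coding genes on both sides of the 10, by the RefSeq gene order, were compared as well, a comparison added after the values were seen. Of 20 neighbours, 4 rose, 4 fell and 12 did not pass. Of all genes 14.5% rose and 18.1% fell, so with 20 neighbours these counts are near the background. The neighbour of ERO1 that runs towards it on the opposite strand, YML131W, had 3.64, 2.24 and 4.14. YML131W rose 10.1-fold (3.34 ± 0.98, limma adjusted p = 2.61e-06), more than ERO1 itself, and like ERO1 it was lowest on replicate 2. COX14, on the other side of ERO1 and on its strand, had 0.91, -0.01 and 0.86 and did not pass (0.58 ± 0.52, adjusted p = 0.0509). The files do not say where on either gene the probes lie or which strand they read, so a share of the YML131W signal in the ERO1 spots was not tested. YCL042W, which lies beside PDI1 and is read away from it, had 1.06, -0.38 and 2.27, like PDI1 lowest on replicate 2 and highest on replicate 3. YCL042W rose (0.98 ± 1.33, limma adjusted p = 0.0473), and a share of its signal in the PDI1 spots was not tested either. JEM1 had no neighbour past the test, with 0.10 for SMC3 and -0.29 for PSF2. RIM15, which lies beside HAC1 and is read away from it, had -1.13, -2.10 and -0.07, also lowest on replicate 2 and highest on replicate 3, and fell (-1.10 ± 1.02, adjusted p = 0.0111).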

How the data were processed

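The authors deposited 1 value per spot and array for 13056 spots, read here as the log2 ratio of both channels, from its sign, size and the dyes in the labels. The sources used here do not give scanner, background correction or normalization. Spot intensities were not analysed, and the number of arrays limits precision. The labels do not say whether arrays came from separate cultures, so the spread between these arrays may be technical. The p-values and intervals rest on that spread, drawn in large part towards a value common to all genes. The platform annotation names 1 gene for 11138 spots, several for 0 and none for 1918. Of the 5539 genes, 5534 matched RefSeq assembly R64 by gene ID, among them all 10 described; that table gave systematic names and neighbours only. Duplicate spots correlated with r = 0.940, 0.927 and 0.937 over 5510 pairs.

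Replicate 3 was negated, the spots of each gene were averaged, and each array was centred on its median gene. The mean ratio was set against 0 by limma's moderated test (limma 3.58.1 under R 4.3.3, lmFit then eBayes; two-sided, Benjamini-Hochberg over all genes, threshold 0.05, 10.8 prior and 2 residual degrees of freedom), after a check on simulated data. Figures used Python 3.11.15 and matplotlib 3.10.9. The genes, lists and tests were chosen with earlier results of these data known. All 10 genes are named; of other lists, up to 3 genes that rose most and 3 that fell most, plus IRE1, TRL1 and INO1. Outside this rule, ERV2, the ER-associated degradation genes MNS1, NPL4, MNL1, UBC7 and HRD1, and chromosomal neighbours were picked once their values were known. No sequence tables were used here.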

Additional observations from a re-analysis of the deposited data

How the results depend on the processing

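ERO1 passed as higher and JEM1 as lower in 11 of 12 alternatives each, and KAR2, LHS1, EUG1, MPD2 and HAC1 passed in 0. The exception for ERO1 and JEM1 was the fit without moderation, in which each gene has only its own 2 degrees of freedom: 0 of the 10 genes, 0 of the 108 secretory genes, and 5 higher and 4 lower genes of all passed, beside 1 higher and 0 lower, 9 and 23, and 684 and 843 at an unadjusted p. Of the 10 genes, 2 rose and 2 fell with centring within runs of 400 spots, 2 fell with centring on all spots, and 3 rose with a dye effect in the fit. Uncentred, 4 secretory genes and 603 of all genes fell and the median of the 10 was 0.059, all ratios being higher by 0.09. With the second spots only, 10 secretory genes fell. Leaving out 1 array gave 1 to 3 of the 10 genes higher and 1 to 2 lower, 6 to 16 secretory genes higher and 5 to 16 lower, 412 to 939 of all genes higher and 602 to 1071 lower, and 7 to 9 of the 10 with an interval below a 2-fold rise. Ratios near 0 changed sign: LHS1 with centring within runs (-0.0099), EUG1 with the first spots (0.12), and with 1 array left out LHS1 (-0.0059 to 0.059), EUG1 (-0.22 to 0.0066), HAC1 (-0.35 to 0.42) and TRL1 (-0.34 to 0.038). Except where the construction is named, the cause was not tested. The test itself is paired, since both conditions share each array, and no further replicate block was fitted.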
